A study of Sus scrofa with 18 samples.

Results

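Adrenergic receptors are the cell surface receptors through which adrenaline and noradrenaline, and the catecholamine drugs given in circulatory failure, act on heart and vessels. The alpha-1 receptors couple to Gq proteins and phospholipase C and contract vascular smooth muscle. The alpha-2 receptors couple to Gi proteins, lower cAMP and restrain noradrenaline release from sympathetic nerve endings, and the beta receptors raise cAMP, in the heart mainly through ADRB1.

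Transcripts of these receptors were read in serum. The study holds that mRNA in serum likely stems mostly from degrading cells, and that its organ of origin cannot be discerned. Of 31908 genes in the deposited count table, 7 carried the symbol of a receptor among 8 listed symbols: ADRA1A (ENSSSCG00000009661), ADRA1B (ENSSSCG00000017041), ADRA1D (ENSSSCG00000007139), ADRA2A (ENSSSCG00000010629), ADRA2B (ENSSSCG00000008122), ADRA2C (ENSSSCG00000008703) and ADRB1 (ENSSSCG00000010647). The row of ADRB3 (ENSSSCG00000015821) had no symbol and was found by its identifier. It is described beside the others and is not counted among the 7. A gene entered the tests with at least 5 reads in total, which 6 of the 7 and ADRB3 reached.

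The serum came from 6 female Danish Landrace pigs, 5 months old and anesthetized throughout. Each was bled at Baseline, in cardiogenic shock (CS) after stepwise injection of polyvinyl alcohol microspheres into the left main coronary artery, and on percutaneous ventricular assist device (pVAD) support with an Impella CP pump while shock persisted. Replicate numbers name the animal, so replicate 1 of each time point is the same pig. Used were 6 Baseline, 5 CS and 6 pVAD libraries with 18229243 to 71488943 counts each. The library of CS replicate 6, which the study also set aside, was not used. It held 2484066 counts and 0 reads of every receptor, where 3 reads would amount to 1.21 on a per-million scale of its own counts and the other libraries held 11.0 to 55.8 ADRA1A reads on that scale. Shock, the passage of time under anesthesia and, at the pVAD time point, the pump came in the same order in every animal. Their parts cannot be told apart. A p here measures the spread between libraries of these 6 animals.

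Levels are CPM, counts per library size after TMM scaling. The receptors' levels were not compared with each other, since CPM is not scaled for transcript length. Bulk serum cannot tell more RNA per source cell from more source cells releasing RNA. Of the libraries used, 2 stood apart in composition. In CS replicate 4 the 4 most abundant genes took 71.5% of the counts (TMM factor 0.307), and in pVAD replicate 6 they took 57.6% (TMM factor 0.454), while the other factors were 0.829 to 1.55.

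No receptor was called in any comparison. A transcript counted as called at unadjusted p below 0.05 in the edgeR quasi-likelihood test with a fold change above 1.5. By this rule 0 of 6 receptors were called in CS vs. Baseline, where 2.82% of all 26146 genes tested were called. In pVAD vs. CS it was again 0 of 6, beside 2.43% of all genes, and in pVAD vs. Baseline 0 of 6 beside 0.834%. No receptor had an unadjusted edgeR p below 0.05, DESeq2 called 0 as well, and ADRB3 was not called either. With shares this low over all genes, a count of 0 among 6 receptors does not set them apart. The median log2 change of the 6 receptors was 0.15 in CS vs. Baseline, -0.45 in pVAD vs. CS and -0.09 in pVAD vs. Baseline, beside -0.00, 0.02 and 0.01 over all genes. With the animal as a block the medians of the 6 receptors were -0.06, -0.14 and -0.04, so the direction in CS vs. Baseline turned. The first 2 comparisons share the CS libraries. The precision behind these medians differed widely, with standard errors (SE) of the log2 change from 0.20 for ADRA1A to 0.95 for ADRB1 in CS vs. Baseline.

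**Figure D1:**
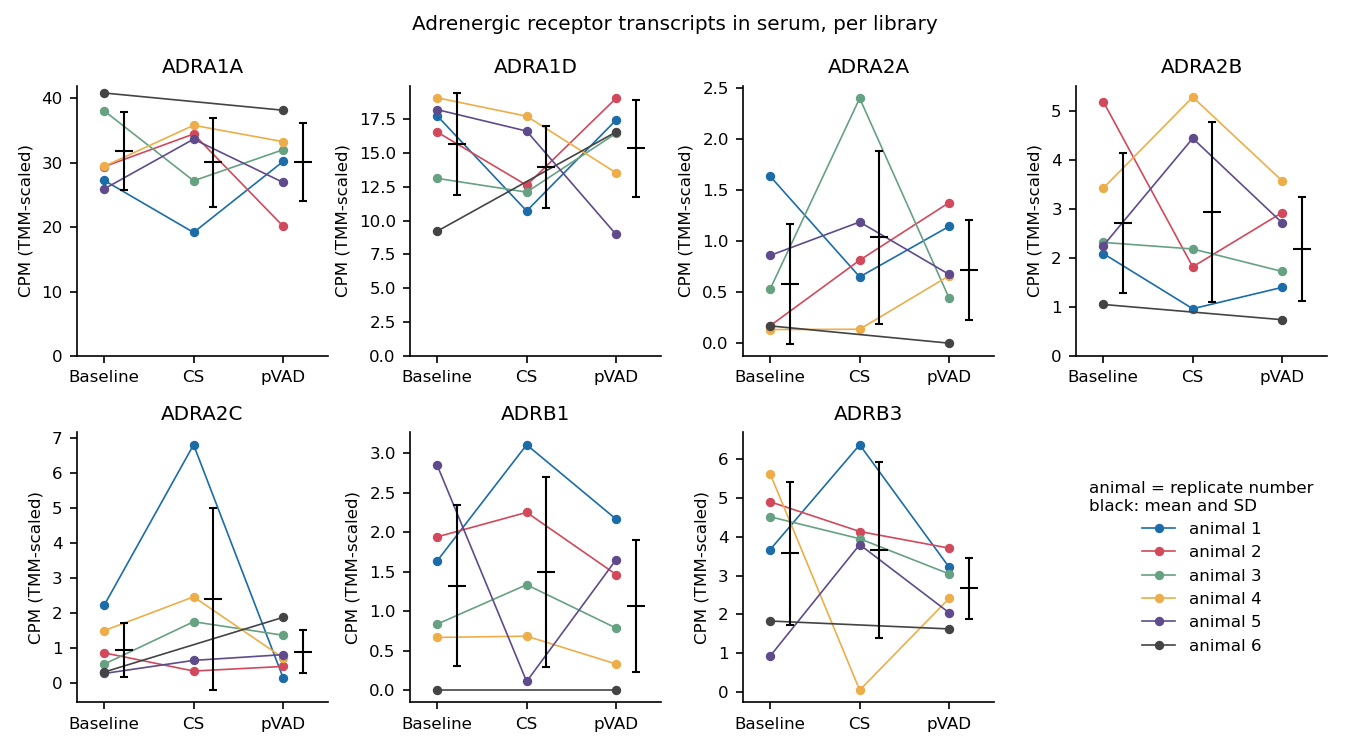
Level of each receptor transcript (CPM on a TMM-scaled library size, linear axis) at Baseline, in CS and on pVAD. Points are libraries, colored lines join the libraries of an animal, and black marks give the mean and SD of a time point (n = 6, 5 and 6). The time points overlap in every panel, the CS value of 6.81 CPM in replicate 1 stands above all other ADRA2C values, and ADRB1 is at 0 in both libraries of animal 6.

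ADRA1A, the alpha-1A receptor that raises tone in resistance arteries, was read in every library, with nearly the same mean at the 3 time points. At Baseline it ranged from 25.9 to 40.8 CPM with a median of 29.4 CPM. The 5 CS libraries held 19.2, 34.5, 27.2, 35.8 and 33.7 CPM, replicates 1 to 5 in order. On pVAD the values ran from 20.2 to 38.2 CPM with a median of 31.1 CPM. The lowest value of all was in CS replicate 1 and the highest in Baseline replicate 6, and the time points overlapped. Means were 31.8 ± 6.12 CPM (SD, n = 6) at Baseline, 30.1 ± 6.94 CPM (SD, n = 5) in CS and 30.1 ± 6.13 CPM (SD, n = 6) on pVAD. ADRA1A was higher in CS than at Baseline in 3 of 5 animals.

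The intervals of the ADRA1A change were the narrowest of all receptors. In CS vs. Baseline the fold was 0.944 with a 95% interval of 0.708 to 1.26 (edgeR, adjusted p = 1). The interval was 0.752 to 1.34 for pVAD vs. CS and 0.719 to 1.24 for pVAD vs. Baseline. All of these intervals lay inside a 1.5-fold change either way. Exact permutation tests of the CPM (two-sided) gave p = 0.654, 0.996 and 0.641 in the same order.

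ADRA1D, the alpha-1D receptor found in large conducting arteries, was read by 272 to 959 reads per library and was likewise close at the 3 time points. Baseline values ran from 9.21 to 19.1 CPM with a median of 17.1 CPM. In CS the values were 10.7, 12.6, 12.1, 17.7 and 16.6 CPM. On pVAD it ranged from 8.97 to 19.04 CPM with a median of 16.5 CPM. The low values were spread over animals, with the lowest of pVAD in replicate 5 and the lowest of Baseline in replicate 6. Within animals ADRA1D was lower in CS than at Baseline in 5 of 5. Animal 1 went from 17.7 to 10.7 CPM and animal 2 from 16.5 to 12.6 CPM. The falls were smaller in animal 3 (13.1 to 12.1 CPM), animal 4 (19.1 to 17.7 CPM) and animal 5 (18.2 to 16.6 CPM). The Baseline SD between animals was 3.77 CPM. Among all receptors and comparisons this was the only count with every animal on the same side. The log2 change was -0.17 (SE 0.24), a fold of 0.891 with a 95% interval of 0.636 to 1.25 (edgeR, adjusted p = 1). The exact permutation test, which does not pair libraries by animal, gave p = 0.437. With the animal as a block the log2 change was -0.20 (SE 0.23). From CS to pVAD it was higher in 3 of 5 animals, with a log2 change of 0.14 (SE 0.23).

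ADRA1B, the third alpha-1 receptor, was listed at 0 in all 17 libraries and was not tested. A row at 0 cannot be read as absence in this table. Among 20860 protein-coding genes, 2304 (11.0%) were listed at 0 throughout and only 135 had 1 to 19 reads in all libraries together. The genes at 0 include some that most cells use, such as ATP5PF, a subunit of mitochondrial ATP synthase, CELF1, an RNA-binding splicing regulator, the heparan sulfate polymerase EXT2 and the mitochondrial deacetylase SIRT3. Presence in all libraries was also common. Reads in every one of the 17 libraries were found for 15491 protein-coding genes (74.3%) and for 4 of the 7 receptors.

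The alpha-2 receptors had few reads and varied several-fold between libraries. ADRA2C, which with ADRA2A restrains release of noradrenaline and, in the adrenal medulla, of adrenaline, had the largest fitted changes of all receptors in both comparisons with CS, and their size rested on 1 library. At Baseline it ranged from 0.265 to 2.21 CPM with a median of 0.694 CPM. The CS libraries held 6.81, 0.335, 1.75, 2.46 and 0.640 CPM. On pVAD it ranged from 0.145 to 1.87 CPM with a median of 0.757 CPM. The highest value, 283 reads in CS replicate 1, and the lowest CPM, 8 reads in pVAD replicate 1, came from the same animal. ADRA2C was higher in CS than at Baseline in 4 of 5 animals, and lower on pVAD than in CS in 3 of 5.

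The mean of ADRA2C was 0.943 ± 0.769 CPM (SD, n = 6) at Baseline, 2.398 ± 2.61 CPM (SD, n = 5) in CS and 0.893 ± 0.626 CPM (SD, n = 6) on pVAD. The log2 change in CS vs. Baseline was 1.33 (SE 0.77), a fold of 2.51 with a 95% interval of 0.836 to 7.55 (edgeR, adjusted p = 1). In pVAD vs. CS it was -1.43 (SE 0.77), a fold of 0.370 with an interval of 0.123 to 1.12 (edgeR, adjusted p = 0.999). The exact permutation tests gave p = 0.225 and 0.199. Without CS replicate 1 the log2 changes were 0.43 and -0.54. With the animal as a block they were 1.03 (SE 0.79) and -0.77 (SE 0.87). The transcript passed the threshold in CS vs. Baseline without Baseline replicate 1 (1.78) or without CS replicate 2 (1.61). It passed in pVAD vs. CS without CS replicate 2 (-1.72), CS replicate 5 (-1.68) or pVAD replicate 6 (-1.78). Without animal 6 altogether, a setting chosen after seeing the data, pVAD vs. CS was -1.78 as well. In none of these edgeR fits did an adjusted p come under 0.88. In pVAD vs. Baseline the log2 change was -0.11 (SE 0.73).

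ADRA2A, the alpha-2A receptor, which lowers sympathetic outflow in the brain stem and also acts on platelets, was read by 0 to 99 reads per library. Baseline libraries spanned 0.133 to 1.64 CPM with a median of 0.351 CPM. In CS replicates 1 to 5 there were 0.650, 0.813, 2.4004, 0.137 and 1.19 CPM. On pVAD it ranged from 0 to 1.38 CPM with a median of 0.667 CPM. The highest value was in CS replicate 3, pVAD replicate 6 had no read, and the time points overlapped. Its level was higher in CS than at Baseline in 4 of 5 animals. The log2 change was 0.84 (SE 0.89), with a 95% interval of the fold from 0.496 to 6.45 (edgeR, adjusted p = 1), and the exact permutation test gave p = 0.338. The log2 change was 0.27 without CS replicate 3, 1.51 without Baseline replicate 1 and 0.51 with the animal as a block. The log2 changes of the other comparisons were -0.53 and 0.31, both smaller than their SE of 0.89 and 0.85.

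ADRA2B, an alpha-2 receptor of vascular muscle, had 15 to 243 reads per library. At Baseline it ranged from 1.05 to 5.19 CPM with a median of 2.28 CPM. The CS libraries held 0.962, 1.82, 2.18, 5.28 and 4.44 CPM. On pVAD it ranged from 0.739 to 3.57 CPM with a median of 2.22 CPM. The highest value was that of CS replicate 4 and the lowest that of pVAD replicate 6, which are the 2 libraries of lowest TMM factor. The log2 change in CS vs. Baseline was 0.11 (SE 0.51), with a 95% interval of the fold from 0.516 to 2.24 (edgeR, adjusted p = 1). It turned to -0.21 without these 2 libraries and to -0.21 with the animal as a block. In pVAD vs. CS it was -0.42 (SE 0.51), and 0.07 without the 2 libraries.

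**Figure D2:**
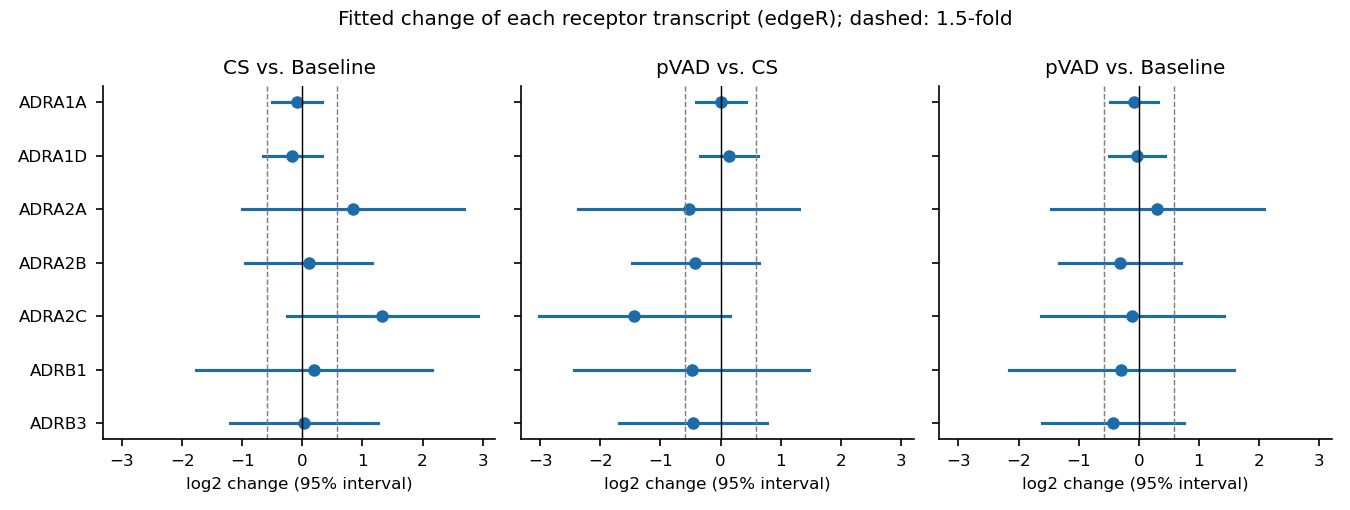
Fitted log2 change of each receptor transcript with its 95% interval (edgeR, 17 libraries) in the 3 comparisons. Dashed lines mark a 1.5-fold change. All intervals cross 0, those of ADRA1A lie within the dashed lines, and the CS vs. Baseline interval of ADRB1 spans a fold of 0.294 to 4.45.

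ADRB1, the beta-1 receptor that raises heart rate and contractility, had no read in 1 animal and was at like levels in the 3 libraries of 4 others. Its Baseline range was 0 to 2.85 CPM with a median of 1.24 CPM. In CS the level was 3.10, 2.25, 1.33, 0.683 and 0.110 CPM. On pVAD it ranged from 0 to 2.16 CPM with a median of 1.12 CPM. Both used libraries of animal 6 had 0 reads, which allows up to 0.102 CPM at Baseline and 0.148 CPM on pVAD by a limit of 3 reads that covers counting error only. Those libraries held 1206 and 775 ADRA1A reads and 272 and 336 ADRA1D reads. The rest had fewer, ADRA2A 5 and 0, ADRA2B 31 and 15, ADRA2C 9 and 38, and ADRB3 54 and 33. Animal 6 also had the lowest mean CPM of ADRA1D, ADRA2A, ADRA2B and ADRB3, but the highest of ADRA1A.

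Animal 1 averaged 2.30 CPM over its 3 libraries, animal 2 averaged 1.88 CPM, animal 3 averaged 0.985 CPM and animal 4 averaged 0.560 CPM. Within each of these the highest library was 1.54 to 2.07 times the lowest. Animal 5 was the exception, with 2.85 CPM at Baseline, 0.110 CPM in CS and 1.65 CPM on pVAD. ADRB1 was higher in CS than at Baseline in 4 of 5 animals and lower on pVAD than in CS in 4 of 5. The log2 change in CS vs. Baseline was 0.19 (SE 0.95), with a 95% interval of the fold from 0.294 to 4.45 (edgeR, adjusted p = 1). With the animal as a block it was -0.12 (SE 0.78). In pVAD vs. CS it was -0.48 (SE 0.94), and the exact permutation test gave p = 0.511. Changes of the size seen here were not detectable given this spread between libraries.

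ADRB3, the beta-3 receptor of fat and bladder muscle, was read by 1 to 265 reads per library. At Baseline it ranged from 0.926 to 5.62 CPM with a median of 4.10 CPM. The CS libraries held 6.38, 4.14, 3.95, 0.0455 and 3.80 CPM. On pVAD it ranged from 1.63 to 3.71 CPM with a median of 2.73 CPM. The single read of CS replicate 4 stood far below the rest of CS, in the library where a few genes took most of the counts, although ADRA1A held 787 reads there. The log2 change in CS vs. Baseline was 0.03 (SE 0.60) and in pVAD vs. CS -0.45 (SE 0.59). The exact permutation test of pVAD vs. CS gave p = 0.359, and p = 0.00952 without CS replicate 4, when all pVAD values lay below all CS values. The edgeR log2 change without that library was -0.77 and did not pass the threshold. ADRB3 was lower on pVAD than at Baseline in 5 of 6 animals (log2 change -0.42, SE 0.57).

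**Figure D3:**
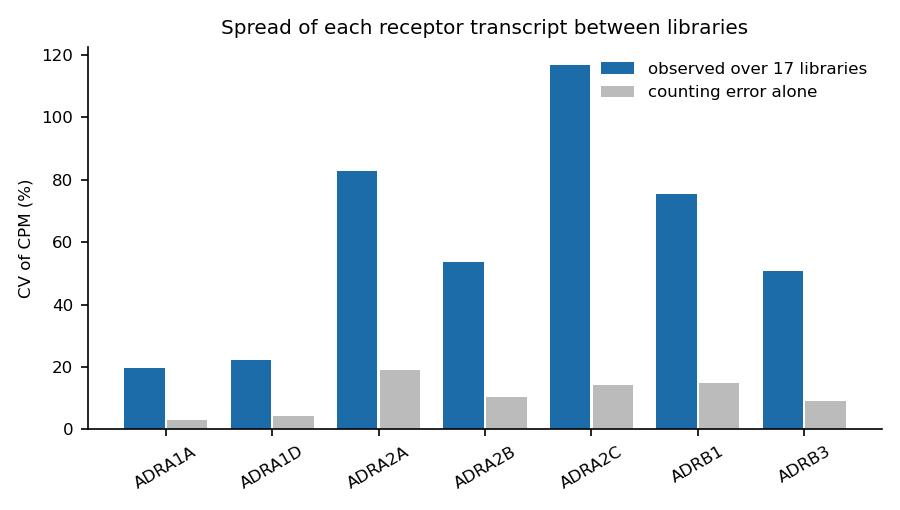
Coefficient of variation (CV, %) of the CPM of each receptor over all 17 libraries, observed and as counting error alone would give, on an axis from 0. ADRA1A (19.6%) and ADRA1D (22.4%) vary least and ADRA2C (117%) most, and each observed value is above the counting error.

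The spread between libraries was larger than counting error for every receptor. The CV over 17 libraries was 19.6% for ADRA1A where counting alone gives 3.02%, and 22.4% for ADRA1D where it gives 4.32%. It was 82.9% against 19.2% for ADRA2A, 53.7% against 10.4% for ADRA2B and 117% against 14.4% for ADRA2C. For ADRB1 it was 75.4% against 14.8%. Amplified reads are not independent molecules, so the counting figures are lower bounds on technical error.

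Most pairs of receptors were weakly correlated over the libraries. Of 21 pairs, ADRB3 included, the log2 CPM of ADRA1A and ADRB1 had r = -0.67 over 17 libraries, ADRA1A and ADRA2A r = -0.50 and ADRA2A and ADRB1 r = 0.57, while the other pairs lay between -0.31 and 0.35. These points share animals and library composition, and r is given as a description. Among 14374 named genes averaging 10 reads per library or more, the most similar to ADRA1A were AUH (r = 0.89), MMP7 (0.89) and LRCH2 (0.89), and to ADRA1D ALAD (0.85), HAGHL (0.82) and SAP18 (0.81). For ADRA2A they were MTCL1 (0.87), SPINK4 (0.85) and KRT2 (0.84), for ADRA2B CDCA3 (0.83), BLOC1S1 (0.83) and HBEGF (0.83), and for ADRA2C TMEM200C (0.90), IPO9 (0.80) and AKAP3 (0.79). For ADRB1 they were FAM83C (0.93), SLC41A3 (0.90) and MINDY4 (0.89), and for ADRB3 SCRN1 (0.90) and GLDN (0.90). All these genes were picked for the highest r among 14374 over only 17 libraries, so their r is high by selection. For ADRB1 the libraries include those of animal 6, which had 0 reads of it. Whether any of these genes varies with a receptor beyond this selection was not tested.

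The genes around the receptors were nearly all below the threshold too. Of 76 tested genes of G proteins, adenylyl cyclases, protein kinase A, cAMP phosphodiesterases, receptor kinases and arrestins, the phospholipase C beta branch, RGS proteins and catecholamine handling, 0 were called in CS vs. Baseline and 1 each, lower, in pVAD vs. CS and pVAD vs. Baseline (1.32% in each, beside 2.43% and 0.834% of all genes and 2.82% in CS vs. Baseline). None of the 76 genes had an unadjusted edgeR p below 0.05 in CS vs. Baseline. DESeq2 called 1, the receptor kinase GRK6, higher in CS (log2 change 0.59, named after its value was seen). GRK6 had an unadjusted edgeR p of 0.0526 in the main fit and was called in 10 of 27 alternatives, edgeR fits among them. The median log2 change of the 76 genes was 0.09 in CS vs. Baseline, -0.10 for pVAD against CS and 0.01 for pVAD against Baseline. In both comparisons with CS the widest medians among these 8 lists were those of the 8 tested receptor kinases and arrestins, which switch receptors off after stimulation. They were 0.24 in CS vs. Baseline, -0.29 in pVAD vs. CS, and -0.05 in pVAD vs. Baseline. This list is named after its values were seen, and the comparisons with CS share the CS libraries. The next widest medians were those of catecholamine handling in CS vs. Baseline (0.22) and of RGS proteins in pVAD vs. CS (-0.21). Neither the 9 adenylyl cyclases, which make cAMP, nor the 10 phosphodiesterases, which degrade it, held a gene called by edgeR or DESeq2. With the animal as a block, 2 further genes of the lists were called, PDE4D, a cAMP phosphodiesterase, higher in CS vs. Baseline (log2 change 0.66, 0.53 without the block), and RGS18, an RGS protein of platelets, lower in pVAD vs. CS (-0.98, -0.70 without the block). Both are named after their values were seen. Of 8 tested muscarinic and dopamine receptors, other receptors of the autonomic transmitters, 0 were called in any comparison, and 0 had an unadjusted p below 0.05 in edgeR or DESeq2.

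PRKACA, a catalytic subunit of protein kinase A, which acts downstream of beta receptors, was lower on pVAD than in CS. The CS libraries held 22.1, 8.95, 11.5, 19.3 and 10.6 CPM, and the pVAD libraries 8.81, 14.1, 6.89, 8.83, 8.08 and 6.65 CPM. Replicates 1 and 4 were high in CS, and pVAD replicate 2 lay within the CS range. The mean fell from 14.5 ± 5.85 CPM (SD, n = 5) to 8.89 ± 2.70 CPM (SD, n = 6), a log2 change of -0.70 (SE 0.31, edgeR, adjusted p = 0.999). The call was lost in 8 of 27 alternatives, among them the animal as a block (-0.51) and the fits without CS replicate 1 (-0.50), CS replicate 4 (-0.58) or pVAD replicate 3 (-0.64), 5 (-0.68) or 6 (-0.63).

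ARRDC3, an arrestin-domain protein that takes part in sorting internalized beta receptors, was lower on pVAD than at Baseline. The Baseline libraries held 4.15, 4.13, 2.77, 1.91, 8.73 and 2.03 CPM and the pVAD libraries 0.527, 1.46, 2.87, 1.75, 1.93 and 1.72 CPM. Baseline replicate 5 was the highest, and pVAD replicate 3 lay above 3 of the Baseline values. The mean went from 3.96 ± 2.54 CPM (SD, n = 6) to 1.71 ± 0.757 CPM (SD, n = 6), a log2 change of -1.20 (SE 0.45, edgeR, adjusted p = 1). Without Baseline replicate 5 it was -0.81 and no longer passed, and it did not pass with all 18 libraries.

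**Figure D4:**
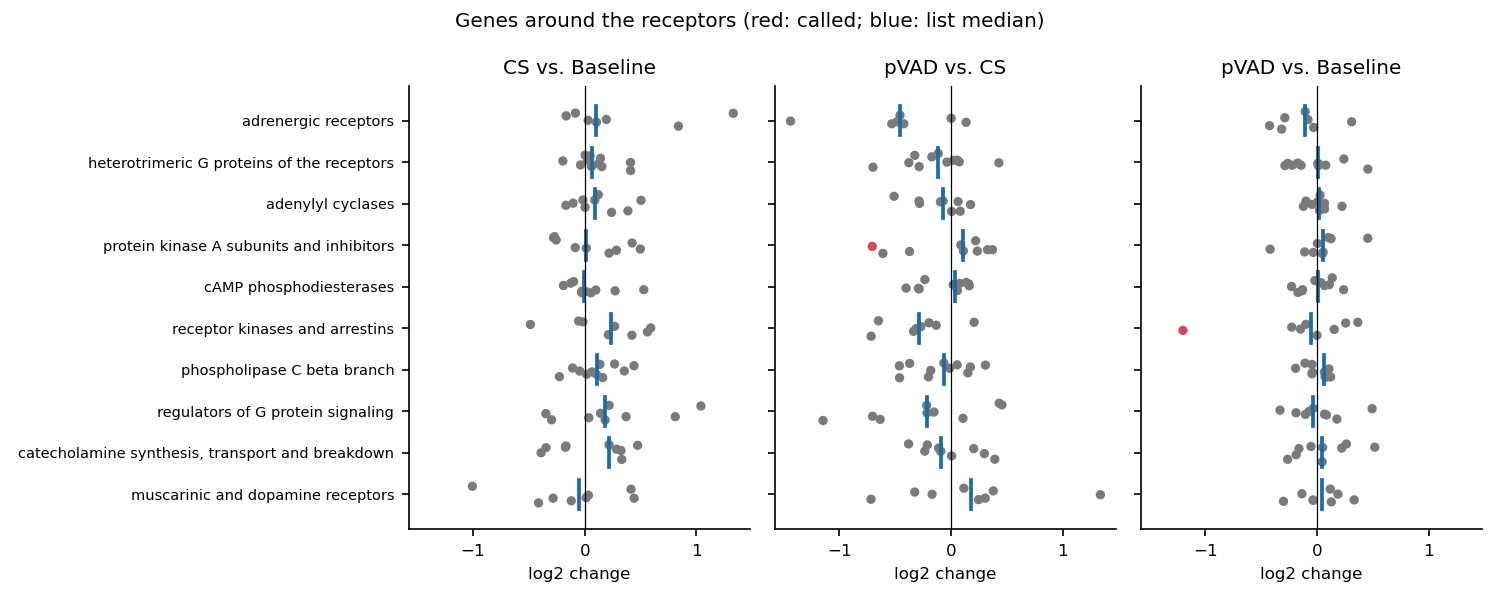
Fitted log2 change (edgeR) of each tested gene of the receptor list (7 genes, ADRB3 included), 8 lists around it and the muscarinic and dopamine receptors, in the 3 comparisons. Blue bars are list medians and red points are called genes, of which there are 2, PRKACA in pVAD vs. CS and ARRDC3 in pVAD vs. Baseline.

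Markers of cells that carry these receptors were present at each time point. Since 74.3% of protein-coding genes had reads in every library, their presence does not identify a source cell. The summed level of 6 vascular smooth muscle markers was 56.9 to 107 CPM at Baseline, 78.6 to 106 CPM in CS and 53.9 to 131 CPM on pVAD, with reads for 6 of 6. That of 6 cardiomyocyte markers was 36.3 to 101 CPM, 65.3 to 117 CPM and 32.6 to 102 CPM. That of 6 adrenal chromaffin and sympathetic markers was 12.6 to 38.5 CPM, 25.4 to 65.0 CPM and 11.7 to 49.1 CPM, where PNMT, the enzyme that makes adrenaline, was listed at 0. That of 6 adipocyte markers was 27.8 to 67.9 CPM, 41.8 to 97.7 CPM and 27.8 to 65.2 CPM. MYH11 led the smooth muscle sum (mean 52.1 CPM at Baseline) and MYH7 the cardiomyocyte sum (43.8 CPM), while TNNI3 had reads in 15 of 17 libraries. In all 4 lists the summed levels of the time points overlapped. Of 23 markers tested edgeR called 0 in each comparison and gave 0 an unadjusted p below 0.05. Over all genes 2.82% were called in CS vs. Baseline, 2.43% in pVAD vs. CS and 0.834% in pVAD vs. Baseline. DESeq2 and the block each called 1, the adipocyte fatty acid carrier FABP4, lower in pVAD vs. CS (log2 change -1.12 and -1.19, named after its values were seen). Their part in the receptor levels was not tested.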

How the data were processed

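Serum RNA of 6 pigs at 3 time points was sequenced by the authors from total RNA with a low-input kit, paired-end on a NovaSeq system. Per the labels and the study's methods, reads were trimmed with Trim Galore 0.4.4, aligned with STAR 2.4.2a and counted per gene with featureCounts in R 3.6.0. The deposited values are raw, unnormalized read counts for each Ensembl gene. No coordinates are printed, since the build is not given in the sources used here.

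From these counts, genes with at least 5 reads over 17 libraries (26146) were fitted with edgeR 4.0.16 (R 4.3.3, quasi-likelihood test, TMM factors, time point as the only term, two-sided), with Benjamini-Hochberg adjustment over all of them. Called means a fold change above 1.5 at an unadjusted p below 0.05, the threshold of the study. Log2 CPM used a prior count of 2. CPM were also compared by exact permutation tests (scipy 1.17.1), without adjustment over the receptors. These tests regroup the libraries of 2 time points and do not use the pairing by animal. Depth was 18229243 to 71488943 counts per library.

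As the study did, the analysis set aside CS replicate 6. The sample sheet assigns each library to an animal, and same-numbered libraries share the animal. Deviations from the time point means had a median r of 0.135 over 16 same-animal pairs and -0.02 over 80 pairs of different animals. The members and gene lists were chosen with earlier results of these data known. Genes named are the receptors, up to 3 called genes per list and comparison with at least 10 reads per library, and the 3 genes most correlated with each receptor, of which 1 is not reported here. Further lists were markers of red cells, platelets, leukocytes and hepatocytes, in which edgeR called 1 platelet gene, lower in pVAD vs. Baseline and lost in 9 of 27 alternatives (the block among them), and 0 genes in the other comparisons. Alternatives were DESeq2 1.42.0, RLE size factors, other filters, all 18 libraries, the animal as a replicate block, fits of 2 time points, removal of mitochondrial and ribosomal RNA genes, no limit on the fold change, and each library left out in turn. Fits without the 2 libraries of lowest TMM factor and without animal 6 were added after seeing the data.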

Additional observations from a re-analysis of the deposited data

How the results depend on the processing

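The number of receptors called stayed at 0 except where ADRA2C passed: leaving out 1 library gave 0 to 1 in CS vs. Baseline and in pVAD vs. CS, and leaving out animal 6 gave 1 in pVAD vs. CS. The cause was not tested. No receptor was called under DESeq2, RLE size factors, either filter, all 18 libraries, the replicate block, fits of 2 time points, removal of mitochondrial and ribosomal RNA genes, or with no limit on the fold change. Counts over all genes moved by more than 1.5 times in 6 fits: 738 to 486 without CS replicate 1, 635 to 388 without CS replicate 1, to 999 without CS replicate 2 and to 960 without CS replicate 5, and 218 to 110 with filterByExpr and to 422 without Baseline replicate 6.

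No receptor change was called in the main fit, so every direction that turned was that of an uncalled change. Over all alternatives, ADRB3 included, 48 log2 changes turned direction, 513 kept direction and call, and 6 became called. In CS vs. Baseline, log2 changes with all 18 libraries were -0.094 for ADRA2B and -0.17 for ADRB3 (exact permutation p = 0.771 and 0.671, and 0.924 for ADRB1). With the replicate block they were -0.21 for ADRA2B, -0.12 for ADRB1 and -0.14 for ADRB3, in pVAD vs. CS -0.073 for ADRA1A, and in pVAD vs. Baseline 0.0023 for ADRA1D and 0.26 for ADRA2C. The block changed no call among the receptors. Around them it lost PRKACA and gained PDE4D and RGS18. Without the 2 libraries of lowest TMM factor ADRA2B was -0.21 in CS vs. Baseline and 0.067 in pVAD vs. CS, and ADRA1A was -0.0054 in pVAD vs. CS. Without animal 6, log2 changes in CS vs. Baseline were 0.00059 for ADRA1A, -0.062 for ADRA2B, -0.069 for ADRB1 and -0.10 for ADRB3, and ADRA1A was -0.075 in pVAD vs. CS. With 2 time points only, ADRA1A was -0.0026 in pVAD vs. CS.

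Leaving out 1 library, or animal 6, gave log2 changes of -0.15 to 0.042 for ADRA1A, -0.21 to 0.39 for ADRA2B, -0.26 to 0.56 for ADRB1 and -0.26 to 0.34 for ADRB3 in CS vs. Baseline. In pVAD vs. CS it gave -0.12 to 0.095 for ADRA1A and -0.82 to 0.038 for ADRA2A, and in pVAD vs. Baseline -0.16 to 0.012 for ADRA1A, -0.17 to 0.085 for ADRA1D, -0.63 to 0.34 for ADRA2C and -0.62 to 0.076 for ADRB1. The exact permutation p values of the same results were 0.476 to 1, 0.468 to 0.960, 0.438 to 0.990 and 0.4 to 1 in CS vs. Baseline, 0.476 to 1 and 0.238 to 0.971 in pVAD vs. CS, and 0.364 to 0.970, 0.424 to 0.978, 0.567 to 0.970 and 0.342 to 0.944 in pVAD vs. Baseline. A length-scaled comparison between receptors was not run, since no exon lengths were used here. ADRA2A, ADRA2C and ADRB1 (573, 903 and 874 reads over all libraries) had folds whose 95% intervals reach past a 3-fold change in at least 1 direction in every comparison. Their spread between libraries was above counting error, which is a lower bound on technical error. The part of depth in these intervals was not tested.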
